A study of Mus musculus with 7 samples.

Results

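The mouse genes named Zfp followed by a number encode zinc finger proteins, and 361 of them were described here among 27179 genes with deposited read counts. They were taken as all genes whose identifier matched a symbol of that form in RefSeq, without Zfp36, an RNA-binding protein of another kind, and with a deposited length of 300000 bp or less. The counts came from chromatin immunoprecipitation and sequencing (ChIP-seq) with an antibody to the V5 epitope, from pharyngeal arches 1 and 2 of mouse embryos (strain C57BL/6, stage E10.5). In 1 genotype both copies of Moz (Kat6a), a histone acetyltransferase gene, carried a C-terminal Flag-V5-BIO tag, and these homozygous animals are viable and fertile per the series' design text. The other genotype was wild type, which has no V5 epitope, and gave the background of the antibody. Each genotype had 3 ChIP libraries, called V5 for the tagged and wild type for the other, and tagged arches also gave 1 library without antibody, the input. No label says whether the replicates were separate embryos or pools, so spreads and p-values measure differences between libraries, which may be technical. The libraries are DNA, so the counts do not show which of these genes were expressed, and the tissue could not be checked against marker genes.

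Most Zfp genes encode proteins with arrays of C2H2 zinc fingers, in which paired cysteines and histidines hold a zinc ion and each finger contacts a few bases of DNA. Many also carry a KRAB domain, which recruits the corepressor TRIM28 and through it SETDB1, a methyltransferase of histone H3 lysine 9. Genes of the KRAB type multiplied by tandem duplication and stand in clusters, and they are known for silencing transposable elements, some of them at imprinted loci. Zfp genes that stand alone include conserved regulators of development.

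By position, 185 of the 361 genes were clustered, meaning that they belong to a run of 3 or more Zfp genes with gaps of at most 250 kb. A further 48 were in runs of 2 (paired genes), and 128 had no Zfp neighbour within that distance (single genes). Chromosome 7 held 89 members, 72 of them clustered, followed by chromosome 17 with 41 and chromosome 13 with 32. RefSeq lists 358 of the members as protein-coding. Deposited lengths ran from 2192 to 297786 bp with a median of 15592, and were 14356 for clustered and 19789.5 for single genes. The length limit fell between Zfp423, inside at 297786 bp, and Zfp407, outside at 381804 bp.

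Promoter windows give the sequence context of the classes. Of the members, 300 had a RefSeq window (GRCm38.p6), of which the 250 bases before the gene start were used, and 197 of these windows start within 50 bp of the outer end of the gene. The median number of CpG dinucleotides was 9 in 165 clustered genes and 13 in 99 single genes, against 9 over 18458 genes of the table with a window. The windows of 2 clustered genes, Zfp81 and Zfp708, and of 2 single genes, Zfp281 and Zfp326, are printed 5′ to 3′ with CpG in capitals. They were chosen after their values were seen, because Zfp81 had the lowest and Zfp281 the highest ChIP signal against the input, Zfp708 is from the cluster with most members, and Zfp326 lay above the input in every ChIP library. They cover, on the - strand for the clustered pair and the + strand for the single pair, chr17:33358879-33359128, chr13:67097977-67098226, chr1:136624651-136624900 and chr5:105876318-105876567.
Zfp81: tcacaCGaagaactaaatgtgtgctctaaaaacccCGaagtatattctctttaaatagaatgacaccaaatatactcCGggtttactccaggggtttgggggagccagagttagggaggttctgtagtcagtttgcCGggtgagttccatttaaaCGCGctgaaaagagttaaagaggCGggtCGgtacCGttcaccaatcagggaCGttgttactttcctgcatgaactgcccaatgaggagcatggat
Zfp708: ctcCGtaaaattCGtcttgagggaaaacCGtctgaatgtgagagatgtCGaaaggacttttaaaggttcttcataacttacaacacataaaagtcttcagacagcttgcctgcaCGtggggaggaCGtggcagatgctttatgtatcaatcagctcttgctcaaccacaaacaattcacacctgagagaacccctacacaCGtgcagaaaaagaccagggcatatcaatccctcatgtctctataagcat
Zfp281: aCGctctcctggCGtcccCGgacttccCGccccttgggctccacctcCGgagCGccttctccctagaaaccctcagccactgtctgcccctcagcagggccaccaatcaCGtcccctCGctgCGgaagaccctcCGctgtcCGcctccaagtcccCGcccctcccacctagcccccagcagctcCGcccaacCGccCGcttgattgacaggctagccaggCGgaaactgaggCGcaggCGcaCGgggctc
Zfp326: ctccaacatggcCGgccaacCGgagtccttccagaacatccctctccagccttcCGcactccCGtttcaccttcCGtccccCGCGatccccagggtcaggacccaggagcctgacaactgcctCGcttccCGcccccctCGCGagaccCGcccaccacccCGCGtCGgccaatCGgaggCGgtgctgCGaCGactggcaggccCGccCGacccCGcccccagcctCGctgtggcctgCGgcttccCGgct
The windows of Zfp81 and Zfp708 hold 10 and 7 CpG dinucleotides at 46.4% and 44.0% G and C, and those of Zfp281 and Zfp326 hold 19 and 25 at 69.6% and 71.6%. These windows do not stand for the members as a group. The Spearman correlation of CpG number with ChIP signal against the input was -0.07 over 276 members. It was -0.26 over 155 clustered genes and 0.12 over 93 single genes. The GC box, searched as GGGCGG on both strands, occurs in 33.9% of clustered, 53.5% of single and 42.4% of all windows. The letters CCGGAAG, a core of ETS factor sites, occur in 16.97% of clustered, 18.2% of single and 8.98% of all windows. GCATGCGC, part of the NRF1 site, is in 5.45%, 1.01% and 3.01%, and TATAAA is in 4.24%, 9.09% and 12.1%. All 4 were searched on both strands and matches may overlap. A match describes the window only, since the deposited counts are given per gene and not per promoter window.

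Library totals ran from 806648 to 3488745 counts, with the input the deepest and V5 replicate 1 the shallowest. The median member had 8 counts in V5 replicate 1, 55 in V5 replicate 3, 21 to 44 in wild type and 57 in the input. Values are given as CPM, a gene's counts per 1000000 counts of the library. A count of 0 allows up to 3.72 CPM in V5 replicate 1 and 0.860 in the input, from counting error alone. Members with 0 counts everywhere numbered 6, among them Zfp91, Zfp85 and Zfp750, and each lies wholly inside another counted gene. Members that overlap another counted gene numbered 58, and their counts are uncertain, as are those of near-identical copies. The deposited length was within 1% of the RefSeq span for 199 members, and for the others the counted part is less certain.

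As a group, the Zfp genes took a similar share of reads in tagged and wild-type ChIP. They held 0.879%, 0.940% and 0.939% of the reads in V5 replicates 1, 2 and 3. Wild-type ChIP stood at 0.912%, 0.907% and 0.933%. The input stood at 0.940%, and the members make up 0.867% of the summed gene length. The V5 mean was 0.919% ± 0.0349 and the wild-type mean 0.917% ± 0.0139 (SD, n = 3), a difference smaller than the spread between libraries, and the groups overlapped.

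The question of the input comparison is whether ChIP took up these genes unequally from the chromatin offered, and the summed reads of clustered and of single genes lay on opposite sides of the input, though not in every class of gene length. Clustered genes summed to less than in the input in all 6 ChIP libraries. Relative to their share of the input they stood at 0.823, 0.827 and 0.913 in V5, while wild-type replicates stood at 0.899, 0.842 and 0.900. Single genes as a sum lay the other way, at 1.01, 1.15 and 1.07 in V5 and 1.04, 1.10 and 1.07 in wild type. Paired genes were mixed, with 1.02 to 1.05 in V5 and 0.858 to 1.01 in wild type, and there the 3 V5 libraries lay above the 3 wild-type libraries. With TMM scaling the paired groups overlapped. TMM scaling and totals without Chl1 and Cdk5rap2 kept the clustered genes below the input in all 6 libraries, at 0.798 to 0.910. Single genes stayed above it except in V5 replicate 1 with those totals, at 0.991. Counts have 1 input library behind them, so its own spread is unknown and no p-value is given for these sums.

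**Figure D1:**
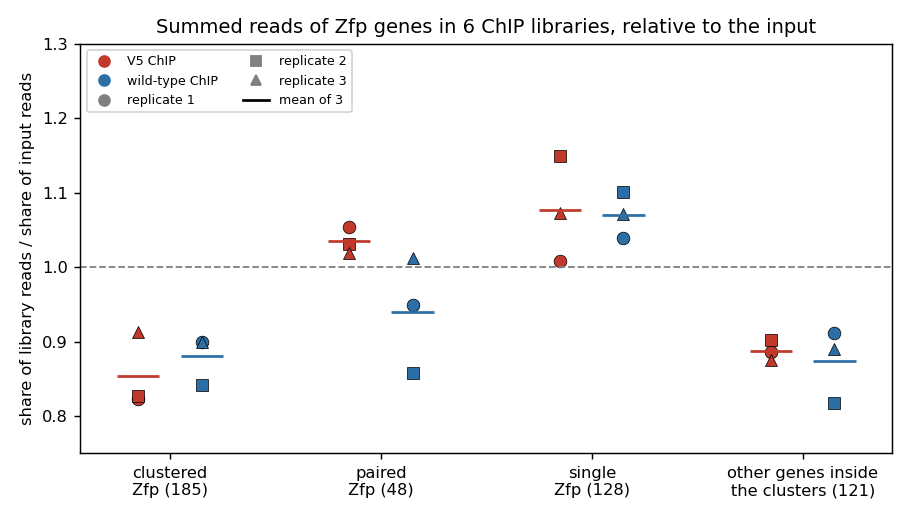
Share of library reads divided by the share of input reads (y axis, dashed line at 1 for the input) for clustered, paired and single Zfp genes and for other genes inside the clusters; points are libraries, colours the genotypes, symbols the replicates and bars the means of 3. Clustered genes sit between 0.823 and 0.913 and single genes between 1.01 and 1.15.

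As a sum, a low ChIP share was also found in the clusters outside the genes named Zfp with a number. Other genes of the table that lie inside the same clusters, 121 in number and compared after the data were seen, stood at 0.818 to 0.912 of their input share over the 6 libraries. They were set apart by symbol alone, so zinc finger genes with other names may be among them. Of these genes, 26 overlap another gene and 56 had fewer than 70 counts in all. Their low share did not hold in each cluster. In the 3 clusters with most members, on chromosomes 13, 17 and 7, such genes stood at a mean of 1.23, 0.676 and 0.451 of the input. The ratio of clustered to single reads was 0.911 in the input, 0.743, 0.655 and 0.775 with the tag and 0.788, 0.696 and 0.766 without it. Every ChIP library was thus below the input, at 0.809 ± 0.0560 of it (SD, n = 6), while the V5 mean was 0.966 of the wild-type mean with overlapping groups.

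Gene length moved with the difference between the classes. Among genes of 10 to 30 kb, with 123 clustered and 65 single members, the clustered to single ratio was 0.810 to 1.03 of the input and V5 replicate 3 and wild-type replicate 1 lay above it. Relative to the input, the mean over the 6 libraries was there 0.919 for clustered genes, 0.983 for single genes and 0.931 for 7070 other genes. Both clustered and other genes of that length had 51.6% of their ratios below the input. Among genes of 30 to 100 kb, with 20 clustered and 24 single members, it was 0.733 to 0.820 and all 6 libraries lay below. The single genes of that length ran from 0.855 to 1.06 with a mean of 0.972, so that they lay around the input. The 20 longer clustered genes summed to 0.666 to 0.815 of the input, and 5111 other genes of that length to 0.963 to 0.991. All 13 members over 100 kb were single, and they summed to 1.16 to 1.26 of the input against 1.07 to 1.10 for 1799 other genes of that length. Below 10 kb, 42 clustered genes ran from 0.678 to 1.32 and 26 single genes from 0.894 to 2.14, so that both spread widely around the input. In V5 replicate 1 the clustered gene Zfp579, singled out after its values were seen, had 158 counts, against 9 and 17 in the other V5 libraries and 43 in the input. It also had the highest log2 fold change of V5 over wild type among tested members, 2.76 (SE 1.88, edgeR adjusted p = 0.980), and its groups overlapped. Among the longer clustered genes, 16 of 20 (80.0%) had a ratio below the input, against 47.9% of the other genes of that length with at least 70 counts, and 9 of 20 (45.0%) were below it in all 6 libraries, against 16.8% of those other genes.

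**Figure D2:**
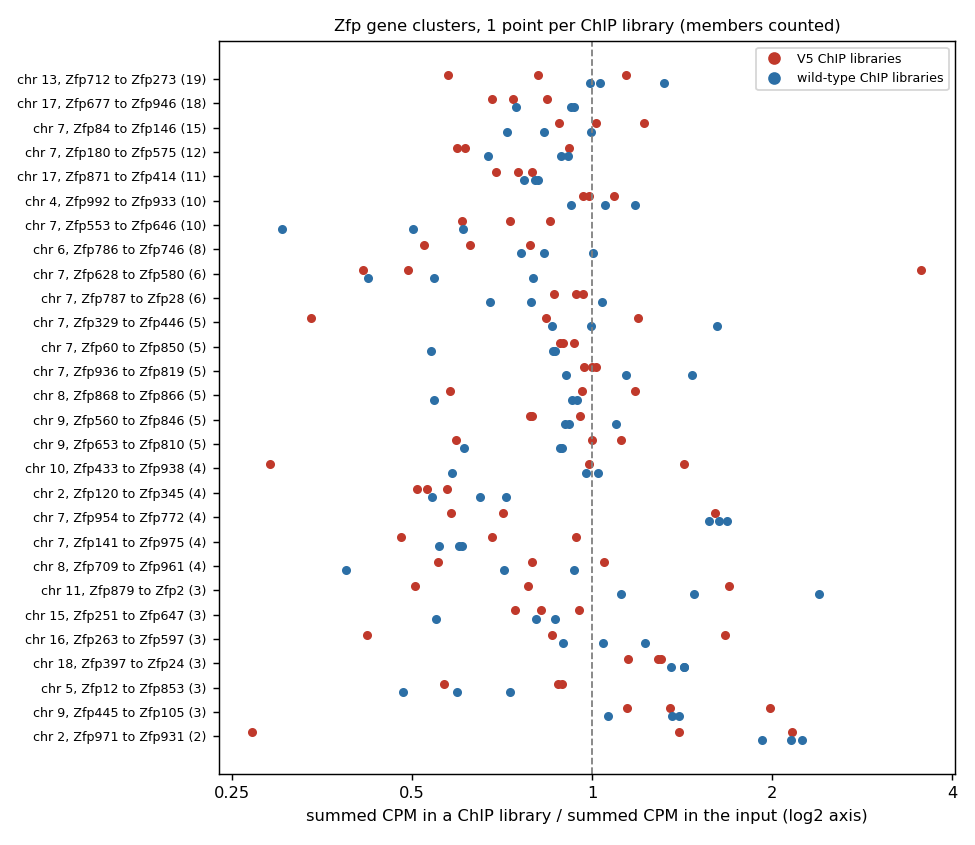
Summed CPM of the Zfp genes of each of 28 clusters in a ChIP library divided by that in the input (x axis, log2 scale, dashed line at 1), with 1 point per library and the number of counted members in brackets. In 9 clusters all 6 ChIP libraries lie below the input and in 2 all lie above it. The 6 libraries share 1 input. Counted by gene and not by cluster sum, 15.4% of all genes with at least 70 counts lie below it in all 6 and 11.6% above.

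Clusters did not behave alike. The mean ratio of ChIP to input was below 1 in 19 of 28 clusters. Single genes are not cluster sums, but 47.2% of all genes with at least 70 counts had a ratio below the input. The cluster with most members, 19 on chromosome 13 from Zfp712 to Zfp273 (67038594 to 67827000), had 964 counts in the input and ran from 0.574 to 1.14 of the input in V5 and from 0.991 to 1.32 in wild type. Its members lay on both sides of the input, with log2 ratios of mean ChIP to input CPM from -1.44 to 1.97 over the 17 members with at least 70 counts in all. The chromosome 17 cluster of 18 from Zfp677 to Zfp946 (21383707 to 22456689) lay below the input in all 6 libraries, at 0.680 to 0.841 in V5 and 0.745 to 0.933 in wild type. The cluster of 15 on chromosome 7 from Zfp84 to Zfp146 (29768552 to 30169775) ran from 0.879 to 1.22 in V5 and from 0.721 to 0.997 in wild type. V5 and wild-type libraries overlapped in all but 2 of the 28 clusters. Counted by gene and not by cluster sum, 10.1% of the 14575 tested genes had groups that did not overlap. In Zfp60 to Zfp850 on chromosome 7, V5 lay above at 0.904 ± 0.0256 against 0.755 ± 0.188. In Zfp397 to Zfp24 on chromosome 18, it lay below at 1.25 ± 0.0844 against 1.40 ± 0.0408 (SD, n = 3).

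Gene by gene the shift against the input was small. Of 331 members with at least 70 counts, 174 (52.6%) had a log2 ratio of mean ChIP to input CPM below 0, against 47.2% of 16736 genes. The median was -0.03 over members, -0.09 over clustered genes and 0.07 over single genes, beside 0.04 over all genes. All 6 ChIP libraries lay above the input in 24 members (7.25%) against 11.6% of all genes, and below it in 47 (14.2%) against 15.4%. Among 172 clustered genes 7 lay above (4.07%) and 30 below (17.4%), the latter near the 15.4% of all genes. Among 120 single genes 15 lay above (12.5%) and 14 below (11.7%).

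**Figure D3:**
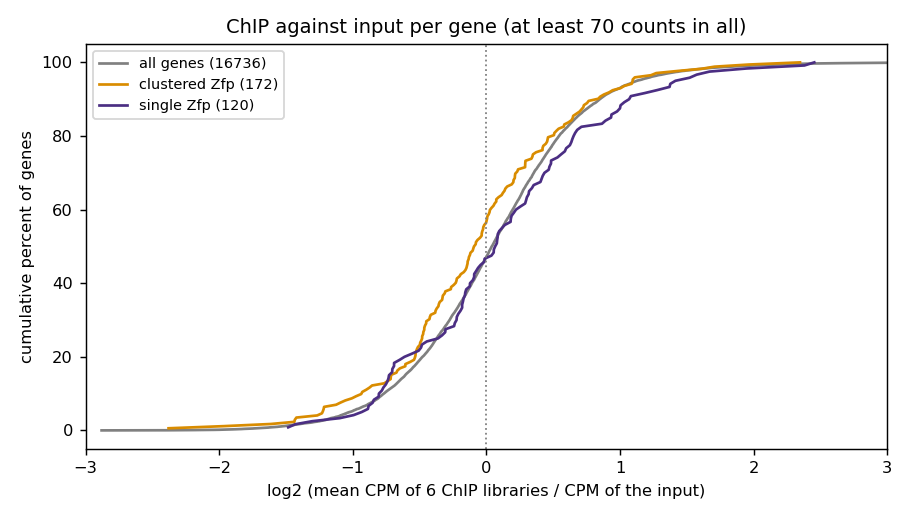
Cumulative percent of genes (y axis) by log2 ratio of mean CPM in the 6 ChIP libraries to CPM in the input (x axis), for genes with at least 70 counts. The clustered curve lies slightly left of all genes and the single curve slightly right, with medians of -0.09, 0.04 and 0.07.

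With the input in the fit and its spread assumed equal to that of the ChIP libraries, no member passed in either genotype. In edgeR's quasi-likelihood test with Benjamini-Hochberg adjustment over 18600 genes, 0 of 341 members passed an adjusted p of 0.05. Over all genes 0.0161% were higher and 0.22% lower in V5 than in the input, and 0.0161% higher and 0.108% lower in wild type. At an unadjusted p under 0.05, 6 members were higher in V5 (1.76%, all genes 3.13%) and 6 lower (1.76%, all genes 2.67%). In wild type 3 were higher (0.880%, all genes 2.46%) and 6 lower (1.76%, all genes 1.93%). Both comparisons share the input library.

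The member farthest below the input was Zfp81, a gene of the second chromosome 17 cluster (GeneID 224694, 33329342 to 33358896, deposited length 25151 bp). It had 3, 9 and 102 counts with the tag, 29, 32 and 58 without it and 346 in the input. In CPM that is 3.72, 7.91 and 31.0, then 22.5, 24.1 and 23.2, and 99.2 in the input. Every ChIP library lay far below the input, which also held more reads per kb here than in any other member, at 3.94 CPM per kb against a median of 1.06. The log2 fold change to the input was -2.68 in V5 (edgeR adjusted p = 0.0662) and -2.09 in wild type (edgeR adjusted p = 0.345). Without any 1 of the V5 libraries Zfp81 passed in V5. It did not pass in V5 with DESeq2 or without any 1 of the wild-type libraries. Without 1 V5 library 0.174% to 0.613% of all genes passed in V5, beside 0.237% with every library. Without Zfp81 the clustered to single ratio was 0.825 of the input, beside 0.809 with it.

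The next lowest were Zfp628 and Zfp629, both in chromosome 7 clusters, and the single gene Zfp735 on chromosome 11, all below the input in every library. Zfp735 had 8, 23 and 103 counts with the tag, 29, 30 and 89 in the wild type, with the input at 234, a log2 ratio of -1.48. Zfp628, which overlaps another gene, and Zfp629 are short, with 46 and 64 input counts and log2 ratios of -1.96 and -1.61. At the other end stood Zfp281, Zfp654, Zfp109 and Zfp87, with log2 ratios of 2.45, 2.38, 2.35 and 1.97 over only 5, 5, 11 and 9 input counts. Few reads stand behind these ratios. Zfp281 had 0, 38 and 15 counts with the tag and stood at 1.19 without V5 replicate 2, and Zfp109 had 46, 11 and 37 and stood at 1.38 without V5 replicate 1. Zfp87 had 7, 10 and 54 counts with the tag and 5, 11 and 39 in wild type, and lay above the input in all 6 libraries.

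Developmental regulators with long genes were among the members with more ChIP than input reads. Zfp521, a zinc finger cofactor of EBF transcription factors (chromosome 18, 13687013 to 13972749), had 237, 283 and 284 CPM in V5, 298, 255 and 285 in the wild type, with the input at 150. All 6 ChIP values lay well above the input and the 2 genotypes overlapped. Its log2 fold change to the input was 0.84 in V5 (edgeR adjusted p = 0.264) and 0.90 in wild type (edgeR adjusted p = 0.236), and with DESeq2 it passed in both. Zfp423, its relative with roles in the cerebellum and fat cells (chromosome 8, 87661810 to 87962053), had 273, 314 and 246 CPM in V5, 234, 240 and 208 in the wild type, with the input at 198. Here the V5 values all exceeded the wild-type values, with a log2 fold change of V5 over wild type of 0.32 (SE 0.18, edgeR adjusted p = 0.980). Zfp536, a regulator of neuronal differentiation, had 143 to 241 CPM in V5, 199 to 232 in the wild type, with the input at 150. Of the 13 members over 100 kb, 6 (46.2%) lay above the input in all 6 libraries and 1, Zfp609, lay below in all. Other genes of that length were above it in all 6 in 31.1% of cases, and 4 of the 13 members (30.8%) had a ratio below the input against 31.1% of them. Just beyond the length limit Zfp407 had 421 to 590 CPM in V5, 457 to 468 in the wild type, with the input at 240.

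Zfp462, a zinc finger protein needed to keep stem cell identity (chromosome 4, 54944491 to 55083563) lay high in both comparisons. It had 154, 181 and 124 CPM in V5, 123, 92.7 and 104 in the wild type, with the input at 65.9. The 3 V5 values lay just above the 3 wild-type values, and all 6 above the input. The log2 fold change of V5 over wild type was 0.55 (SE 0.24), with an unadjusted p of 0.0344 and an edgeR adjusted p of 0.980. It ran from 0.42 to 0.71 when single libraries were left out. Against the input the V5 value was 1.22 (edgeR adjusted p = 0.260), which passed with DESeq2. The short developmental genes Zfp703 and Zfp503 gave few reads, with 18, 26 and 22 counts with the tag and 4, 7 and 9 in wild type for Zfp703, and 6, 27 and 23 against 19, 12 and 7 for Zfp503. The input held 56 and 44 counts of them, more in CPM than every wild-type library for Zfp703.

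The main question of the design is which genes carry more reads with the tag, and no Zfp gene passed. After the filter on low counts 289 of the 361 members were tested among 14575 genes, and edgeR's quasi-likelihood test called 0 of them at an adjusted p of 0.05, as it did over all genes (0.0%). DESeq2 also called 0 of 354. At an unadjusted p under 0.05, 7 members were higher in V5 (2.42%, all genes 2.74%) and 3 lower (1.04%, all genes 1.38%). Without V5 replicate 3 these counts were 17 (5.59%, all genes 5.54%) and 27 (8.88%, all genes 4.82%). A positive log2 fold change was found in 126 members (43.6%) against 52.0% of all genes, with medians of -0.05 and 0.02. The V5 libraries lay wholly above the wild-type libraries in 11 members (3.81%, all genes 4.83%) and wholly below in 13 (4.50%, all genes 5.27%). The median was -0.09 over 148 tested clustered genes, -0.05 over 108 single genes and 0.19 over 33 paired genes. In the edgeR test with the filter, the members' share of lower values at an unadjusted p was thus below that of all genes with every library. It was above it without V5 replicate 3. With every library kept it was also above it with DESeq2 (1.69%, all genes 1.2%) and with no filter (2.25%, all genes 1.99%). The same held with a block for replicate number (2.42%, all genes 1.95%).

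**Figure D4:**
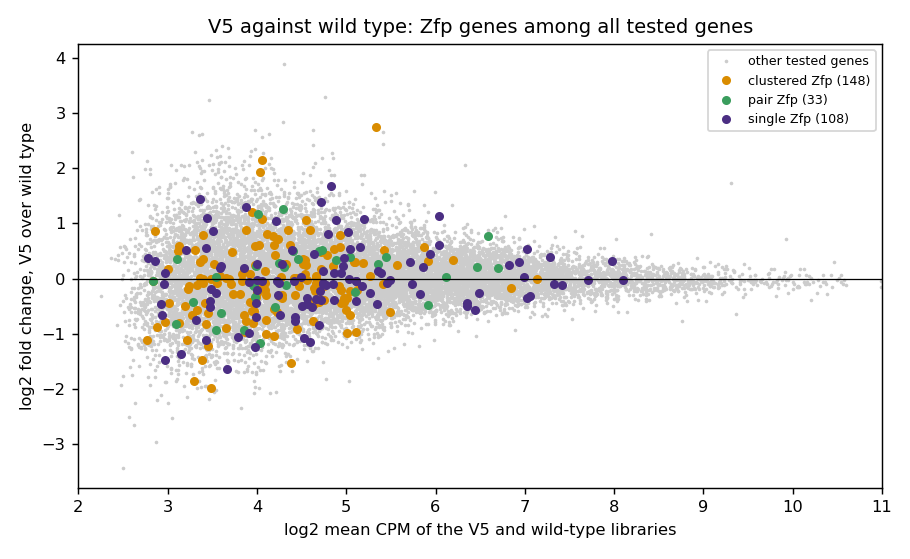
Log2 fold change of V5 over wild type (y axis) against log2 mean CPM (x axis) for 289 tested Zfp genes, coloured by class, over the other tested genes in grey. Zfp genes lie on both sides of 0, within -1.99 to 2.76, and none passed the adjusted threshold.

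Ranked by p, the first 5 members on the side of more V5 reads were Zfp831, Zfp62, Zfp790, Zfp109 and Zfp335. Zfp831 on chromosome 2 (GeneID 100043757, 174598682 to 174710832) had 108, 107 and 55.1 CPM in V5, 41.1, 39.2 and 43.5 in the wild type, with the input at 41.8. All 3 V5 libraries lay above all wild-type libraries, which sat at the input level. The log2 fold change was 1.15 (SE 0.35, unadjusted p = 0.00309, edgeR adjusted p = 0.980). Its deposited length of 67299 bp is shorter than the span given, so the counted part is uncertain. Zfp62 on chromosome 11 had 49.6, 61.5 and 19.2 CPM against 10.1, 7.53 and 22.4 and an input of 8.89, and V5 replicate 3 lay inside the wild-type range. Its log2 fold change was 1.68 (SE 0.57) and was 1.35 to 2.31 without single libraries. Zfp790 and Zfp109, in 2 chromosome 7 clusters, stood at 2.16 (SE 0.74) and 1.94 (SE 0.77), with V5 replicate 1 the highest library in both, and were as low as 1.17 and 0.58 when 1 library was left out. Zfp335, a factor needed for growth of neural progenitors, had 54.5, 45.7 and 14.0 CPM against 16.3, 10.55 and 17.2, with V5 replicate 3 inside the wild-type range. It overlaps another gene, and its log2 fold change was 1.38 (SE 0.57).

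In the other direction stood Zfp658, Zfp947, Zfp292, Zfp994 and Zfp956. Zfp658, clustered on chromosome 7, had 3, 3 and 21 counts with the tag, 27, 19 and 48 in the wild type, with the input at 57. That is 3.72, 2.64 and 6.39 CPM against 21.0, 14.3 and 19.2, with no overlap, a log2 fold change of -1.99 (SE 0.74, unadjusted p = 0.0137, edgeR adjusted p = 0.980). Zfp292, a single gene of chromosome 4, had 55.8, 66.8 and 83.7 CPM against 108, 105 and 100 and an input of 82.3, so that the groups stayed apart and the input lay close to the highest V5 value. Its log2 fold change was -0.57 (SE 0.27). Zfp947 and Zfp994 belong to the chromosome 17 cluster of 18 and stood at -1.53 (SE 0.64) and -0.99 (SE 0.48). The groups overlapped in Zfp947 and not in Zfp994. Zfp956, which overlaps another gene, had 0, 3 and 28 counts against 36, 20 and 12 and a log2 fold change of -1.85 (SE 0.91).

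**Figure D5:**
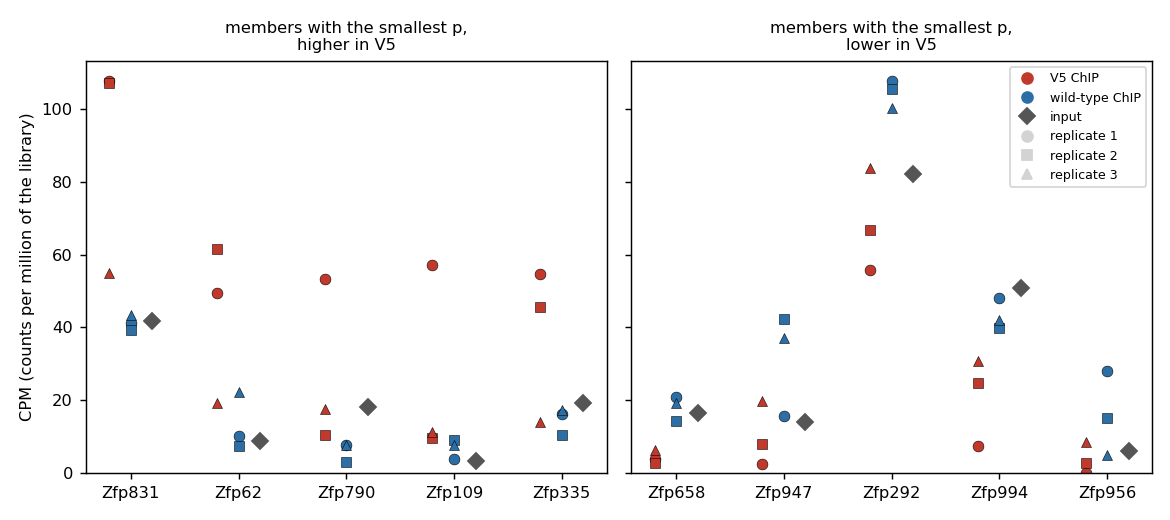
CPM (y axis) in each V5, wild-type and input library for the 5 Zfp genes with the smallest p in each direction. V5 replicate 1 holds the highest value in Zfp790 and Zfp109, and V5 and wild type do not overlap in Zfp831, Zfp790, Zfp109, Zfp658, Zfp292 and Zfp994.

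KRAB zinc finger genes with known targets gave no shared direction. Zfp568, a repressor of a placental Igf2 transcript, had 12.4, 79.1 and 58.4 CPM in V5, 40.3, 41.4 and 25.6 in the wild type, with the input at 60.2. Zfp932, known for binding endogenous retroviruses, had 222, 61.5 and 77.9 against 56.6, 72.3 and 86.2 and an input of 106. Its log2 fold change of 0.78 (SE 0.40) was -0.07 without V5 replicate 1, and its deposited length of 57026 bp exceeds its RefSeq span. Zfp57 and Zfp445, which protect imprinted methylation, had 2, 3 and 23 counts against 15, 6 and 22, and 8, 17 and 46 against 29, 19 and 41. Zfp57 was below the filter. Zfp445 overlaps another gene and stood at -0.42 (SE 0.62). Zfp809, a silencer of murine leukaemia viruses, and Zfp708, both overlapping another gene, stood at 0.08 (SE 0.69) and -0.43 (SE 0.48).

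Of the other members with known roles, Zfp217, a gene amplified in breast cancer, had 48.3, 41.3 and 29.8 CPM in V5, 15.5, 19.6 and 22.8 in the wild type, with the input at 25.5. The groups did not overlap, the input lay between them, and the log2 fold change was 1.06 (SE 0.48, unadjusted p = 0.0371, edgeR adjusted p = 0.980). Zfp42 (Rex1), a pluripotency marker, had 1, 3 and 32 counts against 14, 23 and 29, wholly below in CPM, and stood at -1.37 (SE 0.82). Zfp326, which links transcription and splicing, had 57.0, 61.5 and 66.0 CPM in V5, 50.4, 54.2 and 58.7 in the wild type, with the input at 38.7, above it in all 6 libraries with overlapping genotypes. Zfp143, a promoter-binding activator, varied within both genotypes, lowest in replicate 2 of each, with 63.2, 7.03 and 32.6 CPM against 55.9, 10.55 and 47.5. Zfp207, a mitotic spindle protein, had 5, 4 and 108 counts against 50, 52 and 62 and a log2 fold change of -1.15 (SE 0.63). Zfp148 and Zfp592 stood at 0.03 (SE 0.24) and 0.30 (SE 0.40). Zfp687, below the filter, had 2, 8 and 20 counts against 1, 3 and 5. Over the 23 members named for their known roles, 19 were tested, 11 with a positive and 8 with a negative log2 fold change. Over all tested genes 52.0% were positive.

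On the X chromosome lie 7 members. They summed to 113, 278 and 180 CPM in V5, 186, 102 and 193 in the wild type, with the input at 182, so that V5 replicate 1 and wild-type replicate 2 were low and V5 replicate 2 was high. Zfp711, an X-linked cofactor of the demethylase PHF8, had 34.7 to 48.3 CPM in V5, 39.2 to 51.2 in the wild type, with the input at 45.6. Its log2 fold change was -0.07 (SE 0.38).

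Partner and neighbouring families were read in the same way. A list of 24 genes held Trim28, Setdb1 and other silencing factors, among them DNA methyltransferases that also act outside the KRAB pathway. Of these, 0 passed between V5 and wild type and 12 had a positive log2 fold change. In all 6 ChIP libraries 7 (29.2%) lay below the input, against 15.4% of all genes. Trim28 itself had 3, 11 and 21 counts with the tag, 16, 14 and 20 in the wild type, with the input at 34. The 42 Zbtb genes, 18 Zscan, 11 Zkscan, 17 Klf and 5 Zic genes, other zinc finger families, likewise gave 0 calls between V5 and wild type. Their medians of V5 over wild type were 0.02, 0.00, 0.14, 0.05 and 0.56, the last over 3 tested genes. Against the input, the summed reads of the Zbtb genes stood at 1.06 to 1.26 over the 6 ChIP libraries and those of the Zscan genes at 0.785 to 0.987. Zkscan genes ran from 0.929 to 1.24, Klf genes from 0.937 to 1.13 and Zic genes from 0.768 to 2.73. In wild type 1 of 36 tested Zbtb genes passed as higher than the input, against 0.0161% of all genes.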

How the data were processed

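Read counts per gene, deposited as raw counts by the authors with an Entrez identifier and a gene length in bp, were used for 7 libraries. The submitters' processing notes name bcl2fastq, featureCounts, MACS and mm10, without roles or versions. Aligner and handling of duplicates: not given in the sources used here. Counting error, 3 counts for a gene at 0, is the only error the limits cover. Symbols, spans and promoter windows came from RefSeq GRCm38.p6 by gene identifier (25275 genes with a symbol). The test of V5 against wild type was the robust, two-sided quasi-likelihood test of edgeR 4.0.16 (R 4.3.3) after TMM scaling and filterByExpr at 10 counts. A second fit added the input. DESeq2 1.42.0, no filter, a replicate block and leaving out each ChIP library were alternatives. Log2 ratios to the input per gene used a prior count of 0.5, and their counts and medians took genes with at least 70 counts. Ratios of summed reads used the counts of all genes of a class or cluster, with no prior count and no such limit. The scripts were tested on simulated counts. No library pair was alike within sampling noise (smallest chi-square per degree of freedom 4.03). No label says that replicate numbers pair the libraries, and the main test did not pair them. Members and lists were chosen with earlier results of these data known. The named genes were 23 members with known roles, in each direction the 5 of smallest p, the 4 highest and 4 lowest against the input, the 3 largest clusters, the members at the length limit, up to 3 with 0 counts and the member with most input reads per kb. Zfp579, Zfp609, Zfp60 to Zfp850 and Zfp397 to Zfp24 were chosen after their values were seen. Zinc fingers were not counted, as no protein sequences were used.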

Additional observations from a re-analysis of the deposited data

How the results depend on the processing

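Between V5 and wild type 0 members were called with DESeq2, with no filter, with the replicate block and without each library in turn (0 to 0). The share of all genes called in these settings was 0.0% to 0.0368%, highest with no filter. For libraries with the same number, deviations from the group means correlated weakly (0.014, 0.006 and 0.06). V5 replicate 1 correlated more with wild-type replicate 2 (0.025), while the 0.06 of the replicates numbered 3 was the highest of any pair. Such small values cannot show whether the samples were paired. With the replicate block, 4 members (1.38%, all genes 2.05%) were higher and 7 (2.42%, all genes 1.95%) lower at an unadjusted p under 0.05, and Zfp809 stood at -0.11. Against the input, the V5 count was 2 with DESeq2 (Zfp462, Zfp521; 0.563%, all genes 0.424%), 1 with no filter (Zfp81; 0.282%, all genes 0.407%) and 0 to 1 without single libraries (all genes 0.117% to 0.613%). The wild-type count was 1 with DESeq2 (Zfp521; 0.282%, all genes 0.477%) and 0 to 2 without single libraries (Zfp81, Zfp521; all genes 0.00508% to 0.846%). The summed share of ChIP to input was 0.950 without Chl1 and Cdk5rap2 in the totals. The clustered to single ratio of ChIP to input was 0.896 for genes whose deposited length is within 1% of the span and 0.939 within 10 to 30 kb; that of V5 to wild type was 1.183 within 0 to 10 kb. The cause was not tested. Chosen after seeing the data, leaving out Zfp81 or Zfp579 gave 0.825 and 0.802 for the clustered to single ratio of ChIP to input, and leaving out the X-linked members gave 0.999 for the summed share of V5 to wild type. Without single libraries 10 of 32 named members changed sign: Zfp809 (-0.39 to 0.46), Zfp932 (-0.07 to 1.09), Zfp521 (-0.10 to 0.01), Zfp503 (-0.24 to 1.14), Zfp536 (-0.14 to 0.13), Zfp143 (-0.90 to 0.34), Zfp148 (-0.14 to 0.23), Zfp592 (-0.18 to 0.60), Zfp711 (-0.18 to 0.01) and Zfp87 (-0.05 to 0.91). V5 replicate 1 had a median of 8 counts per member and there was 1 input; without V5 replicate 1, 0 members and 0 genes were called between V5 and wild type.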
